A study of Sus scrofa with 6 samples.

Results

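The genes described here encode the enzymes that methylate lysine 9 of histone H3 (H3K9) and the proteins that recruit, read or maintain that mark. They were SUV39H1, SUV39H2, SETDB1, EHMT1, EHMT2, TRIM28, CBX1, CBX3, CBX5 and SMARCAD1, chosen by name. The choice was made with earlier results of these data known, so counts of these genes are descriptive. Of these 10 symbols, 8 had a row under that name in a table of 18007 pig genes, and the 8 rows lay on 8 different chromosomes. EHMT1 is not analysed here. CBX3 was read from a row that carries an identifier but no symbol, at the position of CBX3 in the RefSeq annotation of Sscrofa11.1, and is given apart from the counts of the 8. RNA was sequenced from 3 porcine embryonic fibroblast lines (PEF5, PEF7 and PEF8) and from 3 porcine induced pluripotent stem cell lines (piPSC5, piPSC7 and piPSC8), with 1 library per line. The fibroblasts came from the ear tips of embryonic day 90 embryos of a Large White boar and a Meishan sow. Every piPSC line derives from the like-numbered PEF line, transduced with lentiviruses carrying doxycycline-inducible OCT4, SOX2, KLF4 and c-MYC (TetO-FUW-OSKM) and the transactivator M2rtTA, was kept in doxycycline-containing LF2i medium, and was grown on mouse embryonic fibroblast feeders. No untransduced cells kept under the piPSC culture conditions were among the groups, so reprogramming factors, medium and feeder contact cannot be told apart. Any reads of the mouse feeders were not separated here.

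Methylated H3K9 marks compact, mostly silent chromatin. SUV39H1 and SUV39H2 are paralogous enzymes that trimethylate H3K9 at pericentromeric repeats, SETDB1 is brought to retroviral elements and other targets by KRAB zinc finger proteins through the scaffold TRIM28 (KAP1), and EHMT2 (G9a) works with EHMT1 to mono- and dimethylate H3K9 in euchromatin. The heterochromatin protein 1 (HP1) family, CBX5 (HP1 alpha), CBX1 (HP1 beta) and CBX3 (HP1 gamma), binds methylated H3K9 through a chromodomain, and the ATP-dependent remodeller SMARCAD1 helps to maintain heterochromatin through replication. In mouse and human cells, H3K9 methylation in somatic cells is known as a barrier to reprogramming, whereas TRIM28 and SETDB1 silence retroviral elements in pluripotent cells.

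The libraries held 11010629 (piPSC8) to 17836510 (PEF5) fragments, and the least covered member value rested on 72 fragments. Of the fibroblast markers, 10 of 10 were higher in PEFs and their summed level was 4544 to 6539 FPKM (fragments normalised to exon length and depth) in PEFs and 145 to 250 FPKM in piPSCs. The pluripotency markers were mostly near 0. Of 10 such genes, 6 had a row under their name and 2 (SOX2 and LIN28B) passed the filter on low values. Neither reached an adjusted p under 0.05, but both were higher in piPSCs at an unadjusted p under 0.05 and with voom on fragment counts. SOX2 was at 0 to 0.0208 FPKM in PEFs and 0.129 to 3.01 in piPSCs. LIN28B was at 0.0104 to 0.0367 FPKM in PEFs and 0.281 to 8.9 in piPSCs. NANOG was listed at 0 in 5 of 6 libraries and at 0.0919 FPKM in piPSC7. Of 6 epithelial markers, 0 passed the filter. All 3 lines were described as male, yet of 4 Y-linked genes DDX3Y, EIF1AY and KDM5D were listed at 0 in both libraries of lines 5 and 7 and UTY reached at most 0.014 FPKM there, whereas DDX3Y had 25.3 FPKM in PEF8 and 42.5 in piPSC8. Key counts are therefore also given for lines 5 and 7 alone.

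Of the 8 members, 7 were higher in piPSCs and 0 were lower at an adjusted p under 0.05 (limma on log2(FPKM + 1), Benjamini-Hochberg adjustment over 12428 genes). At an unadjusted p under 0.05, and with voom on fragment counts, 0 members were lower as well. Over all genes tested, 30.3% were higher and 21.5% lower, 51.7% in either direction. The same 7 members had all 3 piPSC values above all 3 PEF values, a pattern seen for 37.3% of genes tested (26.8% had the reverse), and each of them rose within every line. An increase of at least 2-fold on the log2(FPKM + 1) scale was called for 5 members (SUV39H1, SUV39H2, SETDB1, TRIM28 and CBX1), beside 20.2% of genes tested. The median change of the 8 members was 1.53 on the log2 scale, beside 0.20 for all genes tested. Rescaling the libraries to their median ratio moved these medians to 1.29 and -0.01, and rescaling to equal sums moved them to 1.35 and -0.06. With these rescalings 6 and 5 members were higher, beside 2826 and 2627 of all genes tested. With lines 5 and 7 alone, 5 members were higher, beside 2935 of the 12428 genes tested. Because these were bulk libraries, more cells that express a gene and more RNA per cell cannot be told apart.

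**Figure D1:**
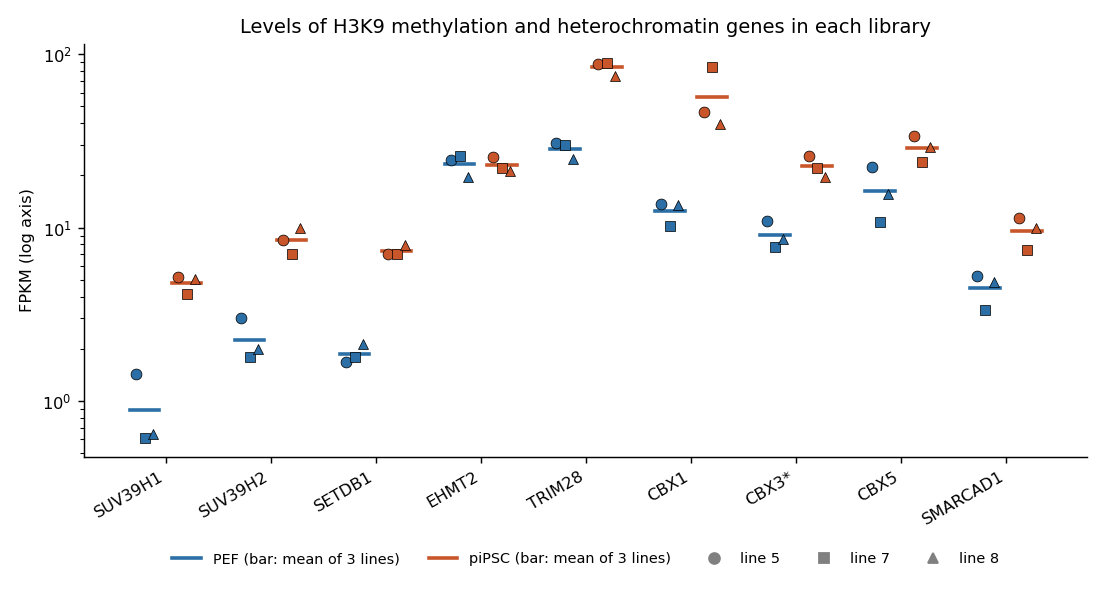
Level of each gene in FPKM, on a log axis, in the 3 PEF libraries (blue) and the 3 piPSC libraries (orange), with the marker shape giving the line and a bar at the mean; the asterisk marks the CBX3 row, which was matched by position. The 2 groups overlap only for EHMT2, and SUV39H1 has the lowest mean in both cell types with the exon lengths of the table. This does not hold in piPSCs when RefSeq lengths are applied to the same fragments.

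The paralogous trimethylases SUV39H1 and SUV39H2 were both low in fibroblasts and higher in every piPSC line. SUV39H1 (ENSSSCG00000032453, chrX:42797159-42814003, plus strand) had 1.42, 0.612 and 0.64 FPKM in PEF5, PEF7 and PEF8 and 5.19, 4.14 and 5.05 FPKM in piPSC5, piPSC7 and piPSC8. The groups did not overlap, and PEF5 stood above the other PEF lines. The mean level was 0.89 ± 0.458 FPKM in PEFs and 4.79 ± 0.567 FPKM in piPSCs (SD, n = 3), and the log2 fold change was 1.64 (SE 0.24, adjusted p = 0.00236). SUV39H2 (ENSSSCG00000011048, chr10:46874608-46900082, minus strand) had 3.01, 1.78 and 1.98 FPKM in the PEF lines and 8.48, 7.02 and 9.92 FPKM in the piPSC lines, again without overlap and with PEF5 the highest PEF line. The rise of SUV39H2 within lines 5, 7 and 8 was 2.81-, 3.95- and 5.01-fold in FPKM, and that of SUV39H1 was 3.66-, 6.77- and 7.89-fold. With lines 5 and 7 alone, which lack Y-linked transcripts almost entirely, the log2 fold change of the X-linked SUV39H1 was 1.51 (adjusted p = 0.021). Line 5, whose fibroblasts started highest, thus had the smallest rise for both genes.

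The higher level in PEF5 was shared with genes of dividing cells. The summed level of 9 proliferation markers was 213, 48.3 and 72.4 FPKM in PEF5, PEF7 and PEF8, and 446 to 470 FPKM in the piPSC lines. The largest parts of the PEF5 sum were PCNA (71.8 FPKM) and RRM2 (68.8 FPKM). TYMS was highest in PEF8 (14.7, 13.7 and 17.4 FPKM in PEF5, PEF7 and PEF8), and every other marker was highest in PEF5 among the PEFs. Of these 9 genes, 8 were higher in piPSCs, beside 30.3% of all genes tested, with a median log2 fold change of 2.97. Examples are CCNB1, a mitotic cyclin (3.54), and MCM2, a subunit of the replicative helicase (3.52). PEF5 was the highest PEF line for 6 of the 8 members and PEF7 the lowest for 5. The like shares over all genes tested were not computed, so these counts only describe the members. The part of proliferation in the members' differences was not tested.

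With the exon lengths of the table, SUV39H2 gave most of the summed SUV39H level in every library. Its share was 68, 74.4 and 75.6% in PEF5, PEF7 and PEF8 and 62, 62.9 and 66.3% in piPSC5, piPSC7 and piPSC8, so the groups did not overlap. The mean difference, piPSCs minus PEFs, was -8.92 percentage points (exact two-sided permutation test, p = 0.1, adjusted p = 0.133 over 4 shares), where 0.1 is the smallest p that 3 against 3 libraries can give. The order of the pair depends on the gene model, since the table's values imply 7430 exonic bases for SUV39H1 and RefSeq gives 4155. For values with RefSeq lengths, the fragments of the table's rows were divided by RefSeq lengths and were not recounted on RefSeq exons. A row with bases outside the RefSeq exons, as that of SUV39H1 has, can then read too high. On that scale the SUV39H2 share was 54.5, 62.1 and 63.5% in the PEF lines and 47.9, 48.8 and 52.5% in the piPSC lines. SUV39H1 then had the larger share in piPSC5 and piPSC7, and the difference was -10.3 percentage points (exact permutation p = 0.1). With the table's lengths, the summed level of the pair was 3.15 ± 1.12 FPKM in PEFs and 13.3 ± 1.93 FPKM in piPSCs (SD, n = 3).

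SETDB1 and its recruiting scaffold TRIM28 both rose, and for each gene the rise was similar in the 3 lines. SETDB1 (ENSSSCG00000006645, chr4:98256868-98293486, minus strand) had 1.67, 1.8 and 2.12 FPKM in PEF5, PEF7 and PEF8 and 7.07, 7.03 and 7.9 FPKM in piPSC5, piPSC7 and piPSC8. Its lowest piPSC value was 3.31 times its highest PEF value, the widest such gap among the members. The log2 fold change was 1.54 (SE 0.18, adjusted p = 0.00103), and the changes within lines 5, 7 and 8 were 1.60, 1.52 and 1.51. TRIM28 (ENSSSCG00000037920, chr6:63081667-63104976, plus strand) had 30.7, 30 and 24.8 FPKM in the PEF lines and 87.8, 89.4 and 74.6 FPKM in the piPSC lines. It had the highest mean level of the members in both cell types, without overlap between PEFs and piPSCs, and line 8 was its lowest line in each. Its log2 fold change was 1.53 (SE 0.15, adjusted p = 0.000675), with 1.49, 1.54 and 1.55 within lines 5, 7 and 8. On the FPKM scale the rise within lines 5, 7 and 8 was 4.24-, 3.9- and 3.72-fold for SETDB1 and 2.86-, 2.98- and 3.01-fold for TRIM28. The closeness of the log2 fold changes of the 2 genes rests on the pseudocount of 1, since a pseudocount of 0.1 gave 1.92 for SETDB1 and 1.56 for TRIM28. TRIM28 transcripts were far more abundant than those of SETDB1 per length of transcript, 28.5 ± 3.23 against 1.86 ± 0.235 FPKM in PEFs and 83.9 ± 8.13 against 7.33 ± 0.489 FPKM in piPSCs. These levels depend on the exon lengths implied by the table's values. They were 7382 bases for TRIM28 against 3049 in RefSeq, and 8673 for SETDB1 against 5492.

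Both loci overlap neighbours on the opposite strand in the table. The SETDB1 row shares 3636 bases with CERS2, a ceramide synthase gene, whose mean level was 6.24 FPKM in PEFs and 2.98 in piPSCs. The TRIM28 row shares 2820 bases with UBE2M, a NEDD8-conjugating enzyme gene, at 34.4 FPKM in PEFs and 48.2 in piPSCs, and lies within the span of the A1BG row, which was at 0.223 and 0.307 FPKM. Use of strand in counting was not given in the sources used here, so reads from the shared bases cannot be assigned to 1 gene.

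EHMT2 was the member whose groups overlapped. EHMT2 (ENSSSCG00000001420, chr7:23978008-23992666, minus strand) had 24.7, 25.9 and 19.6 FPKM in PEF5, PEF7 and PEF8 and 25.4, 22 and 21.1 FPKM in piPSC5, piPSC7 and piPSC8, with the highest and the lowest of the 6 values both among the PEFs. The log2 fold change was -0.03 with a 95% interval from -0.43 to 0.38 (SE 0.17, adjusted p = 0.904), and the changes within lines 5, 7 and 8 were 0.04, -0.22 and 0.11. The sign of this difference turned when PEF5 (0.02), PEF7 (0.05) or piPSC8 (0.03) was left out, and it was -0.29 under median-ratio rescaling (adjusted p = 0.198) and -0.34 under equal sums (adjusted p = 0.16). Relative to the other members EHMT2 changed place, since in PEFs (23.4 ± 3.37 FPKM) only TRIM28 had a higher mean, and in piPSCs (22.9 ± 2.24 FPKM) TRIM28, CBX1 and CBX5 did. Its range overlapped those of TRIM28 and CBX5 in PEFs and that of CBX5 in piPSCs.

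**Figure D2:**
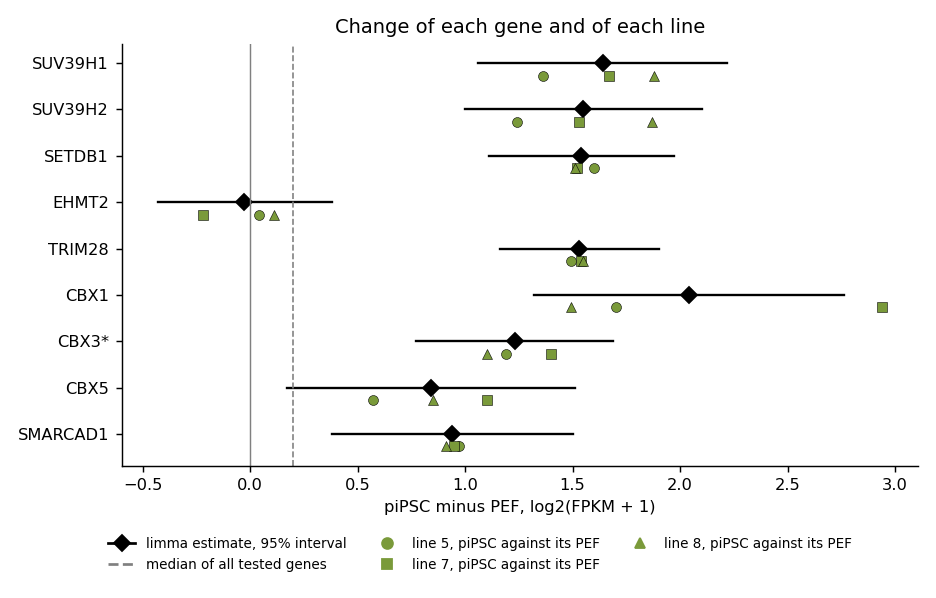
Difference between piPSCs and PEFs on the log2(FPKM + 1) scale, with diamonds and bars for the limma estimate and its 95% interval, and green markers for each piPSC line against its own PEF line; the dashed line is the median of all genes tested (0.20). The 3 line markers nearly coincide for TRIM28, SETDB1 and SMARCAD1, spread from 1.49 to 2.94 for CBX1, and fall on both sides of 0 for EHMT2.

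The HP1 readers were all higher in piPSCs, by 0.84 (CBX5) to 2.04 (CBX1) on the log2 scale. CBX1 (ENSSSCG00000017529, chr12:24320573-24351052, minus strand) had 13.7, 10.2 and 13.5 FPKM in PEF5, PEF7 and PEF8 and 46.7, 84.8 and 39.6 FPKM in piPSC5, piPSC7 and piPSC8. The groups did not overlap, and piPSC7 stood well above the other piPSC lines although PEF7 was the lowest PEF line. The mean level was 12.4 ± 1.98 FPKM in PEFs and 57.1 ± 24.3 FPKM in piPSCs (SD, n = 3). The log2 fold change of 2.04 (SE 0.30, adjusted p = 0.00229) was the largest of the members on this scale. SUV39H1 had the larger change with a pseudocount of 0.1 (2.39 against 2.12), with voom (2.51 against 2.13) and with rescaling to equal sums (1.81 against 1.78). Without piPSC7 the log2 fold change was 1.72. CBX5 (ENSSSCG00000039191, chr5:19446089-19484629, minus strand) had 22.4, 10.7 and 15.6 FPKM in the PEF lines and 33.8, 24 and 29 FPKM in the piPSC lines. The lowest piPSC value was only 1.07 times the highest PEF value, which was again that of PEF5. Its log2 fold change of 0.84 (SE 0.28, adjusted p = 0.0428) was the smallest of the 7 that passed the threshold, and it passed in 5 of 15 alternative settings, with adjusted p values up to 0.173.

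The CBX3 row (ENSSSCG00000016711, chr18:46193140-46204714, minus strand) also separated the groups. It had 10.9, 7.68 and 8.6 FPKM in PEF5, PEF7 and PEF8 and 26, 22 and 19.6 FPKM in piPSC5, piPSC7 and piPSC8, a log2 fold change of 1.23 (SE 0.19, adjusted p = 0.00277). A further row on chromosome 7 (ENSSSCG00000034253, chr7:80570424-80570975, minus strand, inside the RefSeq gene LOC110261685) holds an intronless copy of CBX3. Its 552 bases are identical to the CBX3 coding sequence, which spans 5 coding exons with 4 junctions. To show that the copy is a spliced form, the 60 bases of each locus that start at coding base 301 are given from RefSeq Sscrofa11.1, at chr18:46198026-46198085 for CBX3 and at chr7:80570616-80570675 for the copy, both on the minus strand, with capitals for the 30 bases after the junction of coding exons 3 and 4. In CBX3 these are the first bases of the intron, in the copy the first of the next exon.
CBX3 locus: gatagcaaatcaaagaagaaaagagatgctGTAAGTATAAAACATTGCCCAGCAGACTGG
chromosome 7 copy: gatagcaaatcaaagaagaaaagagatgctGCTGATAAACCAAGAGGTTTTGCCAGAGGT
Every one of the 403 windows of 150 bases (the read length) in the copy also occurs in CBX3 mRNA. Reads from these bases therefore cannot be assigned to CBX3 or its copy, and how such reads were counted was not given in the sources used here. The copy was listed at 45.4, 29.8 and 31.7 FPKM in the PEF lines and 82, 85 and 70.4 FPKM in the piPSC lines, a log2 fold change of 1.15 (SE 0.20, adjusted p = 0.00395). With its fragments added to the CBX3 row, CBX3 was at 18.9, 12.9 and 14.2 FPKM in PEFs and 40.5, 37 and 32 FPKM in piPSCs, still without overlap.

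Within the HP1 family, CBX1 had a larger and CBX5 a smaller share in each piPSC line than in any PEF line. CBX1 made up 29.1, 35.6 and 35.8% of the summed HP1 level in PEF5, PEF7 and PEF8 and 43.9, 64.8 and 44.9% in piPSC5, piPSC7 and piPSC8. CBX5 made up 47.8, 37.4 and 41.5% in the PEF lines and 31.7, 18.4 and 32.9% in the piPSC lines. With the table's exon lengths CBX5 was the most abundant HP1 transcript in every PEF line and was below CBX1 in every piPSC line. With RefSeq lengths (3329 bases for CBX1 against 4238 in the table, and 9585 against 9356 for CBX5), CBX1 was above CBX5 in PEF7 (12.9 against 10.4) and PEF8 (17.2 against 15.3) as well. With the table's lengths and the fragments of the copy added to CBX3, CBX3 (12.9 FPKM) stood above CBX5 (10.7 FPKM) in PEF7. The mean difference was 17.7 percentage points for CBX1 and -14.6 for CBX5 (exact two-sided permutation test, p = 0.1, the smallest this design can give, and adjusted p = 0.133 for each). Without piPSC7 the CBX1 difference was 10.9 percentage points. The CBX3 share overlapped between groups, at 23.1, 26.9 and 22.8% in PEFs and 24.4, 16.8 and 22.2% in piPSCs (difference -3.15, exact p = 0.4). With the fragments of the copy added to CBX3, the differences were 16.7 points for CBX1, -11.8 for CBX5 and -4.93 for CBX3, and with RefSeq lengths they were 17.9, -14.2 and -3.72 points. The summed HP1 level was 37.7 ± 9.23 FPKM in PEFs and 109 ± 21.4 FPKM in piPSCs (SD, n = 3).

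**Figure D3:**
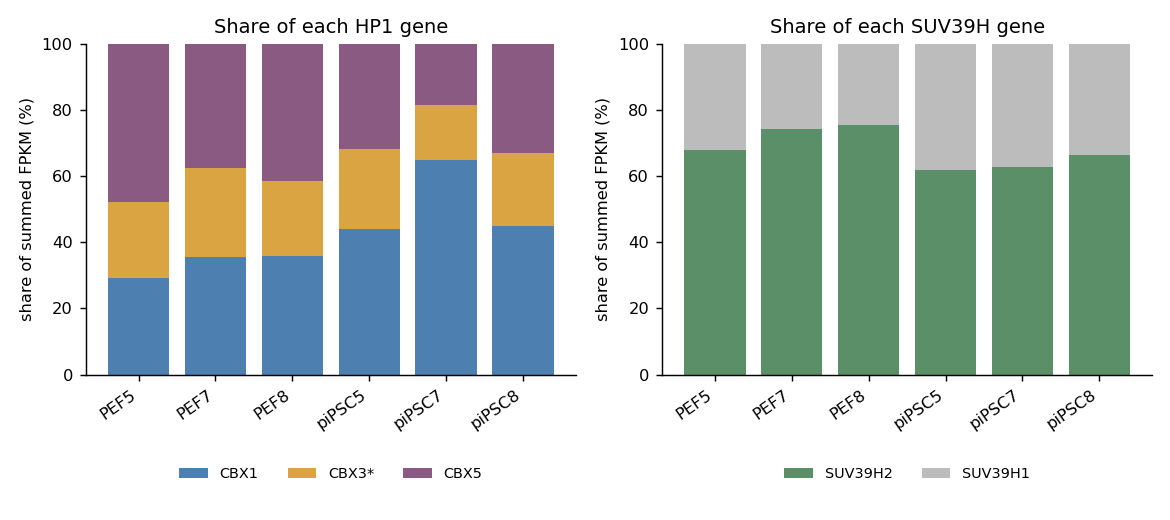
Share (%) of each HP1 gene in the summed FPKM of CBX1, CBX3 and CBX5 (left) and of SUV39H1 and SUV39H2 in the summed FPKM of the pair (right), with 1 bar per library; the asterisk marks the CBX3 row matched by position. The CBX1 share is 29.1 to 35.8% in PEFs and 43.9 to 64.8% in piPSCs, and the SUV39H2 share is 68 to 75.6% in PEFs and 62 to 66.3% in piPSCs.

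CBX5 and CBX3 each start close to a gene for an hnRNP protein, an RNA-binding protein of pre-mRNA processing, that is transcribed in the opposite direction. In RefSeq, 505 bases separate CBX5 from HNRNPA1 and 49 bases separate CBX3 from HNRNPA2B1. The whole interval between the CBX3 and HNRNPA2B1 starts (chr18:46205115-46205163, Sscrofa11.1, plus strand, 51% G and C) is shown because it is the sequence both starts share, in lower case with nothing marked.
CBX3 to HNRNPA2B1: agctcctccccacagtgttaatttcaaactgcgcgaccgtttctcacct
The genes on both sides of this interval were higher in piPSCs. HNRNPA2B1 had 110, 70.5 and 96.8 FPKM in PEF5, PEF7 and PEF8 and 206, 194 and 205 FPKM in piPSC5, piPSC7 and piPSC8, so its piPSC to PEF ratio of means was 2.18 beside 2.49 for the CBX3 row. HNRNPA1, listed in the table as HNRNPA1L2, had 82.4, 50.7 and 67.7 FPKM in the PEF lines and 388, 311 and 330 FPKM in the piPSC lines, a ratio of means of 5.12 beside 1.78 for CBX5. All 4 genes were higher in piPSCs, and the differences between neighbours were not tested. The rows of CBX3 and HNRNPA2B1 share 1613 bases and those of CBX5 and HNRNPA1 17 bases, so some reads cannot be assigned to 1 gene of a pair.

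SMARCAD1 (ENSSSCG00000009193, chr8:125409490-125488481, minus strand) had 5.27, 3.36 and 4.87 FPKM in PEF5, PEF7 and PEF8 and 11.3, 7.42 and 10 FPKM in piPSC5, piPSC7 and piPSC8. The groups did not overlap, and line 7 was the lowest in each. Its log2 fold change was 0.94 (SE 0.23, adjusted p = 0.0156), with nearly the same change within lines 5 (0.97), 7 (0.95) and 8 (0.91). The call passed in 12 of 15 alternative settings and was lost without piPSC5 (adjusted p = 0.0598), with rescaling to equal sums (0.064) and with lines 5 and 7 alone (0.0711).

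In order of abundance with the table's exon lengths, TRIM28 led and SUV39H1 came last in both cell types. In PEFs the mean FPKM fell from TRIM28 through EHMT2, CBX5, CBX1, SMARCAD1, SUV39H2 and SETDB1 to SUV39H1, and the ranges of TRIM28 and EHMT2, of EHMT2 and CBX5, of CBX5 and CBX1, and of SUV39H2 and SETDB1 overlapped. In piPSCs the order was TRIM28, CBX1, CBX5, EHMT2, SMARCAD1, SUV39H2, SETDB1 and SUV39H1, with overlap between TRIM28 and CBX1, CBX5 and EHMT2, SMARCAD1 and SUV39H2, and SUV39H2 and SETDB1. With RefSeq lengths, applied to the same fragments without a recount, TRIM28 still led (69 FPKM in PEFs and 203 in piPSCs). On that scale SETDB1 was above SUV39H2 in both cell types (2.94 against 2.27 and 11.6 against 8.54), and in piPSCs SUV39H1 (8.57) and SUV39H2 (8.54) were level. These levels can be too high for rows with bases outside the RefSeq exons. Among all genes tested, with the table's lengths, SUV39H1 stood at percentile 11.5 of mean level in PEFs and 40.1 in piPSCs, SETDB1 at 22.5 and 51.2, and SUV39H2 at 25.8 and 55.2.

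In the promoter windows of the members (250 bases before to 50 after the RefSeq start, both strands), no word among those searched occurred in every window. CCAAT occurred in 5 of 9 windows with CBX3 included, beside 35.4% of 19556 promoters, and the GC box GGGCGG in 6 of 9, beside 50.6%. The E2F cores searched were TTCCCGC (in 7.03% of promoters), the word TTGGCGC (3.04%) and the word TTCGCGC (2.2%). At least 1 of them occurred in 1 window, that of CBX3, beside 11.5% of promoters. Both matches there lie beyond the start of HNRNPA2B1. The octamer core TTTGCAT occurred in 0 windows, beside 4.04%.

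Genes that work with the members were counted from 3 lists, beside 30.3% higher and 21.5% lower of all genes tested. Of 16 tested partners of the H3K9 methyltransferases and further H3K9 methyltransferase genes, 8 were higher and 0 lower (0 lower also at an unadjusted p under 0.05 and with voom, but 1 lower with no filter on low values and 1 without PEF8), with a median log2 fold change of 0.57. RBL1 (p107), a retinoblastoma family protein, had the largest rise (2.09, adjusted p = 0.0116), from 6, 1.4 and 2.03 FPKM in PEFs to 15, 9.31 and 22.7 in piPSCs. PRDM2, a PR domain methyltransferase gene, rose by 1.03 (adjusted p = 0.00634). ATF7IP, the nuclear partner of SETDB1, rose by 0.82 (adjusted p = 0.0194), and WIZ, a zinc finger partner of EHMT2, by 0.67 (adjusted p = 0.0153), both named after their values were seen, as were DAXX, LBR, KDM4A, KDM4B and KDM4C. The count of 8 fell to 4 with the replicate block, to 2 with either rescaling or without piPSC5, to 3 without PEF7, to 4 without PEF5, PEF8 or piPSC8, and to 1 with lines 5 and 7 alone. Of the 12428 genes tested, 3763 were higher in the main fit and 3483 with the replicate block. The rescalings gave 2826 (median ratio) and 2627 (equal sums), lines 5 and 7 alone gave 2935, and leaving out 1 library gave 2737 to 3588.

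Of 10 tested H3K9 demethylase genes, 0 were higher (1 at an unadjusted p under 0.05 and 1 with voom) and 1 was lower, with a median of 0.29. The lower gene was PHF2, a Jumonji demethylase gene, at 7.19, 7.74 and 4.27 FPKM in PEFs and 1.71, 1.18 and 0.772 in piPSCs (log2 fold change -1.72, adjusted p = 0.00342), without overlap. KDM4A, KDM4B and KDM4C, which demethylate trimethylated H3K9, had log2 differences of 0.02, 0.50 and 0.25, none past the threshold.

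Of 32 tested genes of heterochromatin and HP1 partners, 20 were higher and 3 lower, with a median of 0.85. Over all genes tested, 30.3% were higher and 21.5% lower. The largest rises were those of LMNB1 (3.51, adjusted p = 0.00618), which encodes lamin B1 of the nuclear lamina, and AURKB (3.11, adjusted p = 0.0113), the kinase that phosphorylates H3 serine 10 next to the mark. LMNB1 had 23.2, 2.7 and 3.83 FPKM in PEF5, PEF7 and PEF8 and 91.2, 68.9 and 98 in the piPSC lines, so PEF5 was again the highest PEF line. The genes that fell were LMNA (-1.83, adjusted p = 0.00179), which encodes lamins A and C, KMT5B (-1.09, adjusted p = 0.00322), an H4 lysine 20 methyltransferase gene, and DAXX (-0.84, adjusted p = 0.0456), an H3.3 chaperone gene. LMNA had 204, 207 and 346 FPKM in PEFs and 60.2, 82.6 and 62.8 FPKM in piPSCs, and LBR, a lamin B receptor that also binds HP1, rose by 1.96 (adjusted p = 0.0022). Several genes of this list, AURKB among them, are also raised in dividing cells, and the part of proliferation in these counts was not tested. With lines 5 and 7 alone, 11 of the list were higher and 2 lower, beside 2935 and 2220 of the 12428 genes tested. With rescaling to the median ratio 16 of the list were higher and 5 lower, beside 2826 and 3257 of all genes tested. With rescaling to equal sums 15 were higher and 5 lower, beside 2627 and 3383.

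**Figure D4:**
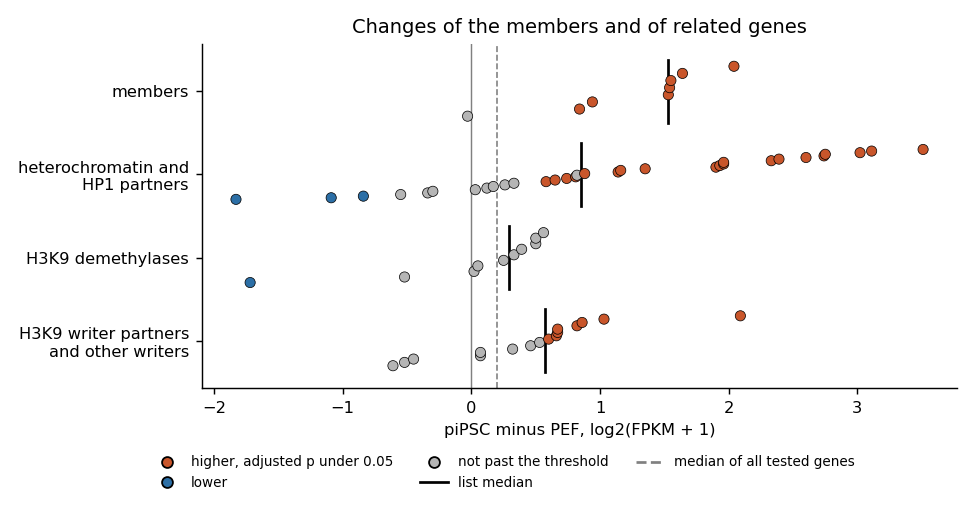
Difference between piPSCs and PEFs on the log2(FPKM + 1) scale for each tested gene of the 8 members and of the 3 related lists, coloured by call, with a black line at each median and a dashed line at the median of all genes tested (0.20). The members' median is 1.53, against 0.85 for heterochromatin and HP1 partners, 0.57 for writer partners and 0.29 for demethylases.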

How the data were processed

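RNA-seq libraries of 3 PEF and 3 piPSC lines were compared, 1 library per line, grouped by the labels. The authors deposited 1 table of FPKM values (fragments normalised to exon length and to sequencing depth) with gene positions in Sscrofa11.1. The submitters' processing notes name HISAT2 2.1.0, Bowtie2 2.2.3 and HTSeq 0.6.0 without their roles, and the handling of strand and of multiply mapped reads was not given in the sources used here. The exon lengths called those of the table were inferred from its FPKM values. For each gene the smallest whole length was taken at which every value above 0 was a whole number of fragments. The tolerance was 0.002 fragments, wider at very high counts. Such a length was found for 100% of 18007 genes, which the search makes likely for genes with few values above 0. It can be too short where fragment counts share a divisor. These lengths gave the fragments per gene and library, with 98.9 to 99.3% of each library's fragments inside the table.

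Genes with a mean of at least 0.5 FPKM (12428) were fitted as log2(FPKM + 1) with limma 3.58.1 in R 4.3.3 (trend, no block), and p values were adjusted by Benjamini-Hochberg. A fold change on this scale understates the change of low genes. A call is an adjusted p under 0.05. Paralog shares were compared by exact two-sided permutation. Scripts were tested on simulated data. The members and lists were chosen with earlier results of these data known. All members and, from each list, up to 2 genes with the largest called changes in each direction were to be named by rule. COL1A1 and COL1A2, which this rule picks among the fibroblast markers, are not described singly. ATF7IP, WIZ, DAXX, LBR, KDM4A, KDM4B and KDM4C were named after their values were seen. Of the markers, SOX2, LIN28B, NANOG, DDX3Y, EIF1AY, KDM5D and UTY were also named outside the rule. No protein sequence and no promoter window of CBX3, most of which lies in its neighbour, is printed. Each piPSC line came from the PEF line of its number, so the numbers pair libraries by origin; after removal of the group means, libraries of lines 5, 7 and 8 correlated with their partners at 0.0921, 0.0946 and 0.08, and with others at -0.121 to 0.0553. Alternatives were the replicate block, a pseudocount of 0.1, no filter or a minimum of 1 FPKM, rescaling, no trend, voom on fragments, each library left out and, chosen after seeing the data, lines 5 and 7 alone, the CBX3 copy added to CBX3, and RefSeq exon lengths for the members. The RefSeq lengths divided the fragments of the table's rows, which were not recounted on RefSeq exons. With 1 library per line, p values measure the spread between lines of 1 cross.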

Additional observations from a re-analysis of the deposited data

How the results depend on the processing

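Of the 12428 genes, 3763 were higher and 2667 lower (58.5% of calls higher). The split was 2826 higher and 3257 lower (46.5%) after rescaling to the median ratio and 2627 and 3383 (43.7%) after rescaling to equal sums. With lines 5 and 7 alone it was 2935 and 2220 (56.9%). The 3 related lists together had 28 higher genes, which became 18 and 17 with those rescalings, 13 with lines 5 and 7 alone, and 17 to 25 with 1 library left out (18 without PEF7, 17 without piPSC5). With the replicate block, 7 members were again higher, no member changed its side of the threshold, and 3483 genes were higher and 2450 lower. Apart from the writer partner list (8 to 4), the block changed no other call of the members or count of the lists by over 1.5 times. For paired differences in the shares, the exact p was 0.25 for CBX1, CBX5 and SUV39H2, the smallest that 3 pairs allow. Leaving out 1 library gave 5 to 7 higher members and 0 lower, beside 2737 to 3588 higher and 2091 to 2495 lower of all genes tested. No filter on low values and no trend each gave 6 higher members. Beside them, 3573 of 18007 genes were higher with no filter and 3785 of 12428 with no trend. SUV39H1, SUV39H2, SETDB1, TRIM28, CBX1 and the CBX3 row passed in all 15 alternatives. CBX5 missed the threshold in 10 of them, among them both rescalings (adjusted p = 0.101 and 0.173), no filter (0.0651), no trend (0.0509) and lines 5 and 7 alone (0.153). EHMT2 stayed short of it in all 15, at -0.29 and -0.34 with the rescalings and -0.14 to 0.05 with 1 library left out (0.02 without PEF5, 0.05 without PEF7, 0.03 without piPSC8). The cause of these changes was not tested. With 3 libraries per group and as few as 72 fragments for SUV39H1 in PEF8, small differences were not detectable.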
